A study of Mus musculus with 6 samples.

Results

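Wnt ligands and the proteins that receive them were followed in bulge SCs, the quiescent stem cells of the hair follicle, with and without integrin-linked kinase (ILK), an adaptor that couples β1 integrins to the actin cytoskeleton. The set was chosen by gene symbol alone and holds 36 of the 43274 genes in the deposited tables. These are 19 Wnt ligands, 10 Frizzled (Fzd) receptors, the co-receptors Lrp5 and Lrp6, the alternative Wnt receptors Ror1, Ror2 and Ryk, and Porcn and Wls, which ligand-producing cells need for Wnt secretion. The cells, marked by surface CD34 and high α6 integrin, were isolated by FACS at postnatal day 21 and gave 3 control and 3 ILK-K5 RNA-seq libraries. Mice of both genotypes carried a transgene that expresses Cre from the keratin 5 (K5) promoter. Control mice had 1 floxed and 1 wild-type Ilk allele (ILK +/- in the labels) and ILK-K5 mice had both alleles floxed (ILK -/-). Cre from this promoter acts in keratinocytes, so that immune, dermal and endothelial cells of ILK-K5 skin are expected to retain Ilk. The labels do not say whether each library came from a single mouse, and p-values therefore measure the spread between these libraries.

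Wnt proteins are lipid-modified by Porcn, carried to the surface by Wls and bound by a Frizzled receptor. Together with Lrp5 or Lrp6 this binding stabilizes β-catenin, which enters the nucleus and activates genes with Tcf/Lef factors, whereas Ror and Ryk receptors mediate responses that do not need β-catenin. In the hair follicle, Wnt signalling is low in resting bulge SCs and is required for their activation and for the growth of new hair.

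Values are normalized counts, the reads on a gene divided by a size factor of the library, unless FPKM is named, which also divides by gene length and is the scale on which genes can be compared with each other. Values per library are listed in the order of replicates 1 to 3. The lengths behind the FPKM were shorter, relative to the exons of GENCODE M21, for Fzd3, Wls, Fzd4, Fzd8, Lrp6 and Wnt10b and to a lesser degree for Wnt2b, Fzd6, Wnt11, Wnt7b, Wnt8b and Fzd1, so that their place among the other genes depends on the annotation, while comparisons of 1 gene between genotypes do not. Reads on genes numbered between 8228019 and 11969072 per library, and 1 read was worth 0.726 to 1.52 normalized counts. Log2 fold changes are ILK-K5 over control on the scale of log2(normalized count + 1), and a gene was called where limma's p-value, after Benjamini-Hochberg adjustment over 16368 genes, did not exceed 0.05. For low genes these values can differ from those of a count model in either direction. Wnt9a had 2.07 with limma and 1.71 with DESeq2, and Fzd9 had -4.36 with limma and -6.37 with DESeq2. Ilk had 21.9 ± 14.6 normalized counts (SD, n = 3) in the controls and 24.96 ± 8.83 (SD, n = 3) in the ILK-K5 libraries, but 89.7% of its exon sequence overlaps with other genes, so that its count does not check the genotypes. Of 8 marker genes of bulge SCs, all were detected in both genotypes. Their summed normalized counts lay between 71365 and 127880 in control and between 38919 and 63125 in ILK-K5 libraries, without overlap. Log2 fold changes were above 0 for 3 of them and below 0 for 5. Cd34, a marker of the sort itself, was the 1 called, lower in ILK-K5 with 430 against 1639 normalized counts (log2 fold change -1.90, adjusted p = 0.0239 from limma). That adjusted p exceeded 0.05, reaching up to 0.0877, when control 1, control 3, ILK-K5 1 or ILK-K5 3 was left out. Markers of other cells differed between the genotypes as well. The summed normalized counts of 10 macrophage markers lay between 92.8 and 128 in control and between 9817 and 13561 in ILK-K5 libraries, with all 10 called higher. For 6 markers of Langerhans and dendritic cells the sums were 53.1 to 800 and 24942 to 37880, with 4 called higher. For 6 fibroblast markers they were 703 to 779 and 1532 to 2493, with Col3a1 called higher and Lum at 0 in every control library. The sums of 7 T cell markers were 158 to 181 and 309 to 390, with Cd2 called among 6 tested. No tested marker of dermal papilla, endothelial or melanocyte cells was called. Dlx3 of the hair germ and matrix list and Lor of the differentiated keratinocyte list were called lower. A higher or lower count of a gene in such sorted samples can come from more or fewer cells of a type or from more or less RNA per cell, and these cannot be told apart here.

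Of the 36 genes, 25 reached a mean of 10 normalized counts across the 6 libraries and were tested. In ILK-K5 bulge SCs 1 of them, Fzd9, was called lower and none higher (limma), where 3.53% of all 16368 genes were called, 2.93% higher and 0.599% lower. Without adjustment the p-value was under 0.05 for 8 genes or 32.0%, 5 higher and 3 lower, against 12.3% of all genes, 8.18% higher and 4.11% lower. These were Wnt5a, Wnt5b, Wnt9a, Wnt10a and Porcn on the higher side and Wnt7b, Fzd3 and Fzd9 on the lower side. The libraries of the genotypes did not overlap for 10 genes or 40%, 5 in each direction, against 17.9% of all genes, 10.9% with ILK-K5 higher and 6.95% lower. Fzd9 and Wnt9a passed the filter only through the genotype in which they are high, while the other 23 tested genes had a mean of at least 10 in each genotype. On the recovered reads, DESeq2 called Fzd9 and Wnt7b lower and Porcn higher, where it called 6.42% of all genes, 4.77% higher and 1.66% lower. edgeR called Fzd9 alone, where it called 3.11%, 2.58% higher and 0.532% lower. limma with a further term for the number that ends the sample descriptions, described with Fzd5 further on, called the same 3 genes as DESeq2, where it called 6.92%, 5.17% higher and 1.75% lower.

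**Figure D1:**
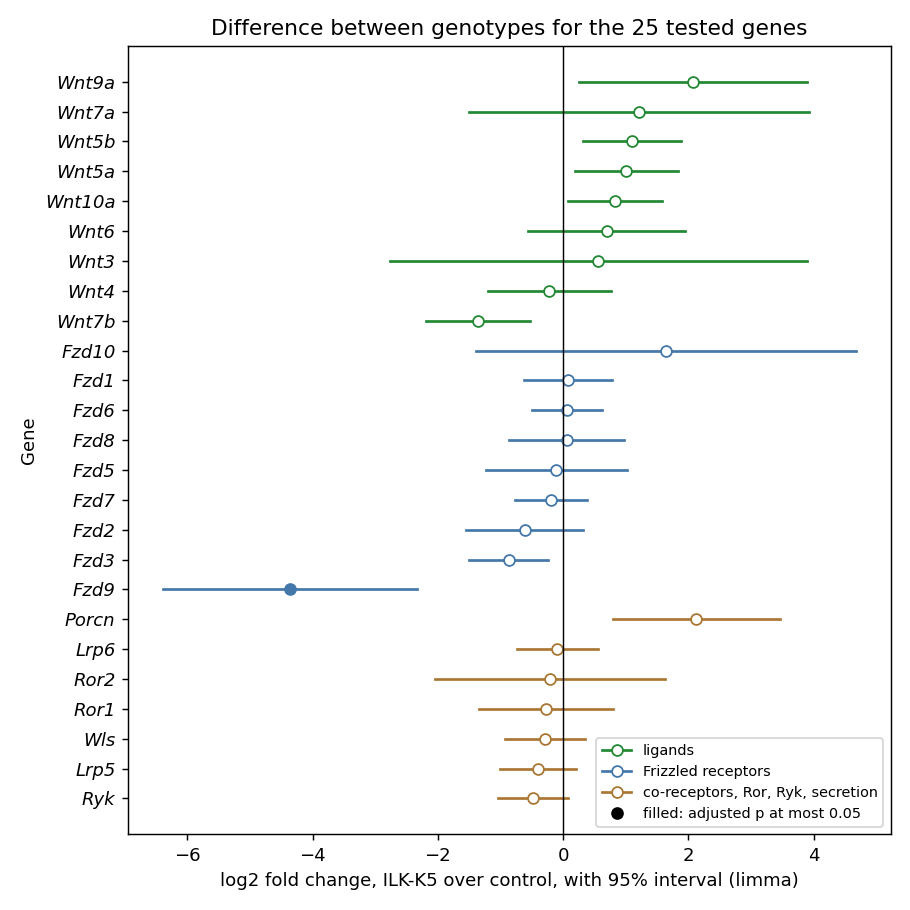
Log2 fold changes of the 25 tested genes (points, ILK-K5 over control, horizontal axis) with 95% intervals from limma (lines), grouped by role. Fzd9 alone passed the adjusted threshold of 0.05, and the intervals of Wnt7b, Fzd3, Wnt5a, Wnt5b, Wnt9a, Wnt10a and Porcn also leave out 0.

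Promoter sequences, from 250 bases before to 50 bases after a RefSeq start in GRCm38, were available for 25 of the 36 genes, in 28 entries. Those of Fzd9, Wnt9a and Wnt5b are shown because these genes are among the 8 with an unadjusted p under 0.05. Wnt5b has several starts, of which the outermost and the innermost are given. Capitals mark matches on either strand to CTTTGA or CTTTGT, cores of the Tcf/Lef motif that differ in the last letter only. The sequences are read 5′ to 3′ on the minus strand for Fzd9 (chr5:135250998-135251297) and Wnt5b (chr6:119544298-119544597 and chr6:119449337-119449636) and on the plus strand for Wnt9a (chr11:59306680-59306979).
Fzd9: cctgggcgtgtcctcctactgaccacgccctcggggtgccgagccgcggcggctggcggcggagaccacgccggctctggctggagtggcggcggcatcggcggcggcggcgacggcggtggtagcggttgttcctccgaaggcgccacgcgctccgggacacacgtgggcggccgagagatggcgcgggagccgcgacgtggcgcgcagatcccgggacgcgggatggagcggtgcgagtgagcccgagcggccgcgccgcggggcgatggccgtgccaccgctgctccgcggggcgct
Wnt9a: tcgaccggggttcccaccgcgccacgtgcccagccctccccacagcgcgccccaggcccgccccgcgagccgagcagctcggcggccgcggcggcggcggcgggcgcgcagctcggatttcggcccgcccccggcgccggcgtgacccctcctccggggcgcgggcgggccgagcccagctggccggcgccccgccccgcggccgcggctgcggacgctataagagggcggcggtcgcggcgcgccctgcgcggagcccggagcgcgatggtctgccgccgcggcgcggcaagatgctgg
Wnt5b outermost start: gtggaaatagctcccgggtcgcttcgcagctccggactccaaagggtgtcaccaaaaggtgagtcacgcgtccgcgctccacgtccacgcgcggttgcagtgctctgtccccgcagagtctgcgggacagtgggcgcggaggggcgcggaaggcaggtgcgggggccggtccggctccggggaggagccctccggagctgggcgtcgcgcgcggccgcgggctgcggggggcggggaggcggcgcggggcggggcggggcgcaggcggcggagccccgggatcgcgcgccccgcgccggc
Wnt5b innermost start: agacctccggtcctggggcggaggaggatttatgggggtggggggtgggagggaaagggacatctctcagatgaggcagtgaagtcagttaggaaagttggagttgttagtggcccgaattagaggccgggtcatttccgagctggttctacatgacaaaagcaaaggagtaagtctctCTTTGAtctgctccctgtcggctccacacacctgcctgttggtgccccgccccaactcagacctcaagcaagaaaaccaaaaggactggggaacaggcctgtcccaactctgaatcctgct
Only the innermost Wnt5b start holds a match among these 4. Of the 28 entries 8 or 28.6% held a match, against 31.2% of all 32851 promoters. The promoters of the set were rich in G and C, with a median of 71.0% against 52.7% over all promoters, and with 30 CpG dinucleotides in the median entry against 7. The entries shown had 78.0%, 83.3%, 78.0% and 55.0% G and C in the order above. A match is a description of these letters only.

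The ligands as a group were low. In control bulge SCs the 19 ligands together reached 22.2 ± 3.92 FPKM (SD, n = 3) and in ILK-K5 bulge SCs 25.8 ± 0.87 (SD, n = 3). The individual sums were 18.3, 22.3 and 26.1 FPKM in controls 1 to 3 and 26.7, 25.6 and 25.002 in the ILK-K5 libraries, so that the ranges overlapped. The 10 Frizzled receptors summed to 163 ± 30.8 FPKM (SD, n = 3) in the controls and 140 ± 14.6 (SD, n = 3) in the ILK-K5 libraries. These ranges overlapped too, with 198, 154 and 138 FPKM in controls 1 to 3 and 135, 128 and 156 in the ILK-K5 libraries. Wnt4, Wnt10a and Wnt7b led the ligands in control bulge SCs with 6.03 ± 3.20, 4.47 ± 1.17 and 3.62 ± 1.14 FPKM (SD, n = 3 each), and their libraries overlapped. Wnt5b followed with 2.07 ± 0.21 FPKM. Its highest value, 2.31 FPKM in control 1, lay just below the lowest of Wnt7b, 2.44 in control 3. This narrow gap depends on the length used for Wnt7b. In ILK-K5 bulge SCs the order was Wnt10a with 7.80 ± 0.67 FPKM (SD, n = 3), Wnt4 with 4.99 ± 1.85, Wnt5b with 4.47 ± 0.475, Wnt5a with 2.08 ± 0.68, Wnt6 with 1.61 ± 0.48 and Wnt7b with 1.35 ± 0.05. Wnt10a stood apart from Wnt4 there, Wnt4 overlapped with Wnt5b, and Wnt5b stood apart from Wnt5a.

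**Figure D2:**
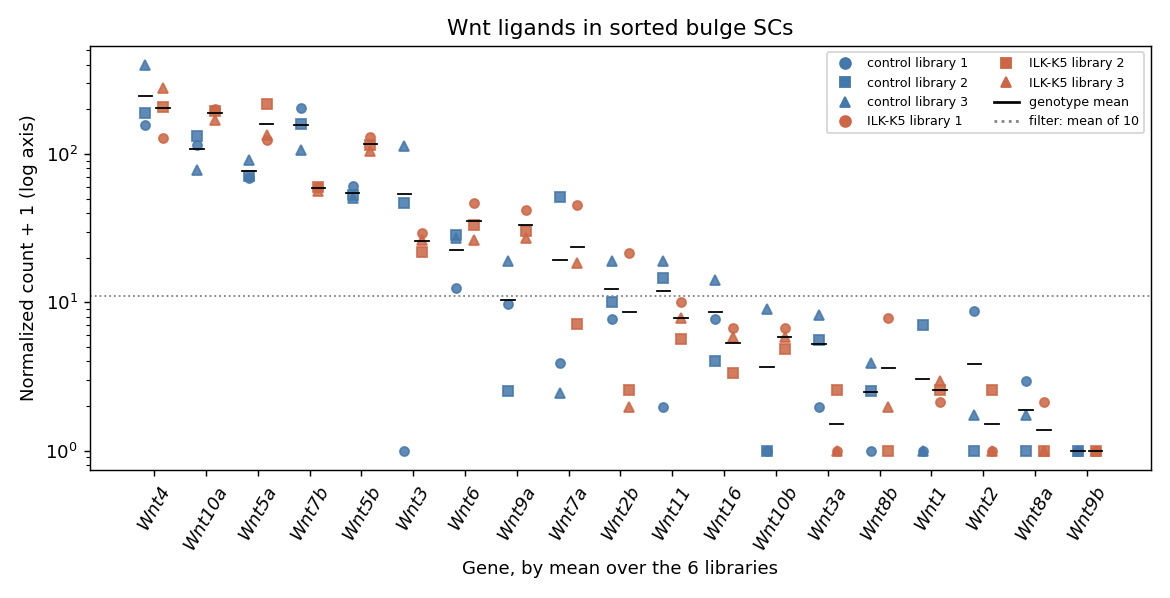
Normalized count + 1 (vertical log axis) of the 19 ligands in each library, with control in blue, ILK-K5 in orange, the replicate as the marker shape and genotype means as black bars. Wnt7b lies lower in all 3 ILK-K5 libraries, Wnt5a, Wnt5b, Wnt9a and Wnt10a lie higher, and 10 ligands have a mean below the dotted line at 10 normalized counts.

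Wnt7b, a ligand of epithelia that acts mainly through β-catenin, was the tested ligand with the lowest p-value. Its gene (ENSMUSG00000022382) lies on the minus strand of chromosome 15 from 85535437 to 85582473 in GRCm38, and 6.61% of its exon bases are shared with AU022754 on the other strand. It had normalized counts of 204, 158 and 105 in controls 1 to 3 and 59.2, 59.4 and 55.5 in the ILK-K5 libraries. Every ILK-K5 library lay below every control library, and the ILK-K5 libraries were close to each other. The log2 fold change was -1.36 (95% interval -2.19 to -0.52), a level 2.56-fold lower, and missed the threshold with an adjusted p of 0.0980 (limma). In replicate 1 the difference between the genotypes was -1.76 and with replicates 2 and 3 alone it was -1.15 (adjusted p = 0.278, limma). DESeq2 called it, with an adjusted p of 0.0124, and edgeR did not, with 0.0970.

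Wnt5b and Wnt5a, close paralogues known mainly for responses that do not need β-catenin, lay on the opposite side. Wnt5b (ENSMUSG00000030170, minus strand of chromosome 6, 119432531 to 119544347) had 59.8, 51.7 and 49.3 normalized counts in controls 1 to 3 and 129, 114 and 104 in the ILK-K5 libraries. All ILK-K5 libraries exceeded all control libraries, with a log2 fold change of 1.09 (95% interval 0.31 to 1.88, adjusted p = 0.170, limma). The difference was 1.09 in replicate 1 and 1.10 in replicates 2 and 3. Wnt5a (ENSMUSG00000021994, plus strand of chromosome 14, 28504750 to 28527448) had 68.5, 69.9 and 90.0 normalized counts in control and 123, 217 and 134 in the ILK-K5 libraries. The genotypes again did not overlap, and ILK-K5 library 2 was the highest. The log2 fold change was 1.01 (95% interval 0.19 to 1.83, adjusted p = 0.248, limma). With the macrophage, dendritic cell and fibroblast markers listed above also higher in ILK-K5 libraries, the part of these cells in the Wnt5a and Wnt5b counts was not tested.

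Wnt10a, a ligand needed for hair follicles and teeth, had 114, 132 and 76.9 normalized counts in controls 1 to 3 and 200, 194 and 170 in the ILK-K5 libraries. All ILK-K5 libraries lay above all control libraries, and the log2 fold change was 0.83 (95% interval 0.08 to 1.58, adjusted p = 0.324, limma). Wnt10a (ENSMUSG00000026167, chromosome 1, 74791516 to 74804179) stands 6193 bases downstream of Wnt6 on the same strand. Wnt6 had 11.6, 27.4 and 26.1 normalized counts in control and 45.5, 32.4 and 25.3 in ILK-K5 libraries, which overlapped (log2 fold change 0.69, 95% interval -0.56 to 1.95, adjusted p = 0.766, limma). Wnt9a (ENSMUSG00000000126, plus strand of chromosome 11, 59306928 to 59333552) was near the limit of detection in the controls, with 8.68, 1.52 and 18.1 normalized counts against 41.0, 29.3 and 26.3 in ILK-K5 libraries. These counts stand for 9, 1 and 25 reads in control and 36, 38 and 27 reads in ILK-K5 libraries. The genotypes did not overlap, and the log2 fold change was 2.07 (95% interval 0.25 to 3.90, adjusted p = 0.306, limma). Its neighbour Wnt3a, 16175 bases away and read in the opposite direction, had 1, 3 and 10 reads in control and 0, 2 and 0 reads in ILK-K5 libraries.

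Wnt4 had the highest mean FPKM of the ligands in the controls through control 3, while Wnt10a was above it in controls 1 and 2. It had 156, 187 and 397 normalized counts in control and 128, 207 and 279 in the ILK-K5 libraries. The libraries overlapped widely, and the log2 fold change of -0.22 had a 95% interval from -1.20 to 0.765 (adjusted p = 0.928, limma). Wnt3 varied widely within the controls, with 0, 45.6 and 112 normalized counts in control libraries 1 to 3 against 28.5, 20.8 and 25.3 in ILK-K5 libraries. Its log2 fold change of 0.56 (95% interval -2.76 to 3.89) turned to -1.60 with replicates 2 and 3 alone, and was -1.08 with DESeq2 and -1.10 with edgeR. The means ran against the limma sign too, with 52.5 normalized counts in the controls and 24.9 in the ILK-K5 libraries. Wnt7a, a paralogue of Wnt7b, had 2.89, 50.2 and 1.45 normalized counts in control and 44.4, 6.17 and 17.5 in ILK-K5 libraries. With this spread between libraries no difference could be shown (95% interval -1.51 to 3.93). The 9 tested ligands gave a median of 0.83 on the log2 fold change scale, 7 above, Wnt3 included, and 2 below 0, and the median over all tested genes was 0.0054. With replicates 2 and 3 alone the ligand median was 0.096.

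The other 10 ligands did not pass the filter. They were Wnt1, Wnt2, Wnt2b, Wnt3a, Wnt8a, Wnt8b, Wnt9b, Wnt10b, Wnt11 and Wnt16. None had more than 25 reads in any library, and differences between the genotypes were not detectable at this depth. Wnt9b had 0 reads in all 6 libraries, which allows up to 2.88 normalized counts (3 reads per library) as the mean of the ILK-K5 libraries. Wnt10b, a ligand of the hair germ, had 0, 0 and 11 reads in control and 5, 5 and 5 reads in ILK-K5 libraries. Wnt11, known for cell movement without β-catenin, had 1, 9 and 25 reads in control and 8, 6 and 7 in ILK-K5 libraries. Wnt1 and Wnt10b stand 11706 bases apart on chromosome 15, and Wnt3 and Wnt9b 24328 bases apart on chromosome 11, so that together with the pairs above 8 of the 19 ligands lie beside another ligand gene.

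Shares within the ligand family, computed per length, followed the same genes. Wnt7b took 25.9%, 16.5% and 9.36% of the summed ligand FPKM in controls 1 to 3 and 5.15%, 5.38% and 5.16% in the ILK-K5 libraries. Wnt5b took 12.6%, 8.95% and 7.30% in control and 18.6%, 17.2% and 16.1% in ILK-K5 libraries. Wnt10a took 20.9% ± 7.54 (SD, n = 3) in the controls and 30.2% ± 1.79 (SD, n = 3) in ILK-K5 libraries, and Wnt5a 4.51% ± 0.40 and 8.07% ± 2.69. None of these shares overlapped between the genotypes, while that of Wnt4 did, with 26.2% ± 9.51 (SD, n = 3) in the controls and 19.5% ± 7.79 (SD, n = 3) in ILK-K5 libraries. Shares of 1 total are not independent of each other.

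**Figure D3:**
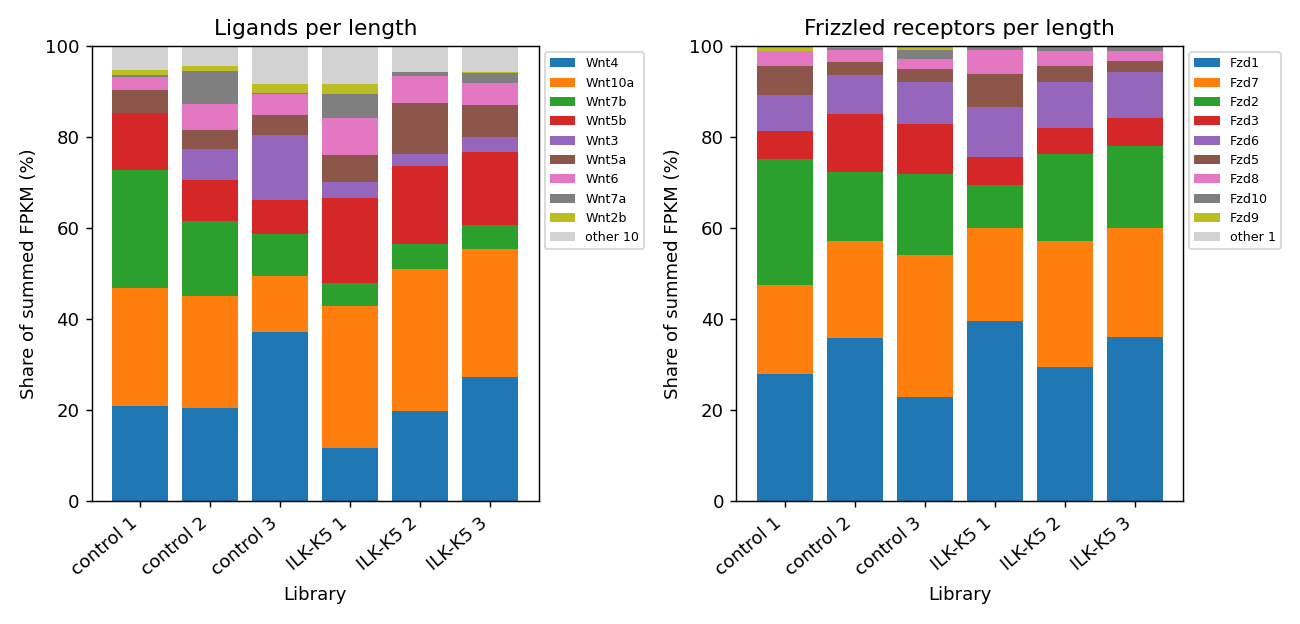
Share of the summed FPKM (vertical axis, %) taken by each ligand (left) and each Frizzled receptor (right) in each of the 6 libraries, with the lowest genes pooled in grey. The Wnt7b segment spans 9.36% to 25.9% in control and 5.15% to 5.38% in ILK-K5 libraries, the Wnt5b segment is larger in ILK-K5 libraries, and Fzd1, Fzd7 and Fzd2 take most of the receptor total throughout.

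Among the receptors, Fzd9 was the gene called. It encodes a Frizzled receptor and lies on the minus strand of chromosome 5 from 135248938 to 135251230 (ENSMUSG00000049551), with no exon base shared with another gene. It had 44.4, 12.2 and 27.6 normalized counts in controls 1 to 3 and 0, 0 and 0.97 in the ILK-K5 libraries. In reads these were 46, 8 and 38 against 0, 0 and 1. All ILK-K5 libraries were at the floor of 3 reads. With 3 reads put in each of them, the mean of the controls was 9.72-fold higher, a bound that leaves out the spread between controls. The log2 fold change was -4.36 (95% interval -6.39 to -2.33, adjusted p = 0.0312, limma). Fzd9 was a minor receptor in the controls, with 1.25 ± 0.72 FPKM (SD, n = 3), or 0.75% ± 0.35 of the Frizzled total. The call did not survive the loss of any single library: adjusted p-values lay between 0.0515, with control 1 left out, and 0.111, with ILK-K5 2 left out (limma). With a pseudocount of 0.1 it was 0.0908, and with replicates 2 and 3 alone 0.0765. DESeq2 gave an adjusted p of 0.000501 and edgeR 0.0219.

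Fzd1, Fzd7 and Fzd2 were the main receptors. Fzd1 reached 47.4 ± 13.6 FPKM (SD, n = 3) in the controls against 49.2 ± 9.92 (SD, n = 3) in the ILK-K5 cells, Fzd7 38.3 ± 5.05 and 33.5 ± 5.28, and Fzd2 34.2 ± 17.6 and 21.7 ± 7.97. In the controls their libraries overlapped, and Fzd6 with 13.9 ± 1.67 FPKM (SD, n = 3) lay below every library of Fzd2. Fzd1 and Fzd7, which bind many β-catenin-activating Wnts, had log2 fold changes of 0.079 (95% interval -0.62 to 0.78) and -0.20 (95% interval -0.77 to 0.38). Fzd6, known for planar polarity of hair follicles, had 0.066 (95% interval -0.49 to 0.62). All 3 intervals lie within a 2-fold change in either direction. The normalized counts of Fzd2 were 1947, 833 and 881 in control and 454, 879 and 994.5 in the ILK-K5 libraries, so that the difference of -0.61 (95% interval -1.55 to 0.32) came from replicate 1, with -2.10, and was 0.13 in replicates 2 and 3.

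Fzd3, another receptor of planar polarity, had 507.5, 804 and 627 normalized counts in controls 1 to 3 and 337, 307 and 407 in the ILK-K5 libraries. Its gene (ENSMUSG00000007989) lies on chromosome 14 from 65192449 to 65262463. The genotypes did not overlap, and the log2 fold change was -0.87 (95% interval -1.50 to -0.24, adjusted p = 0.182, limma). It was -0.59 in replicate 1 and -1.004 in replicates 2 and 3. Fzd10, like Wnt3, was at 0 in control library 1, with 0, 21.3 and 80.5 normalized counts in control and 34.2, 38.6 and 39.0 in ILK-K5 libraries. Fzd4 did not pass the filter, with at most 16 reads in a library. The 9 tested Frizzled receptors gave a median of -0.11 on that scale, 4 above and 5 below 0, also when Fzd9 was set to its bound.

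**Figure D4:**
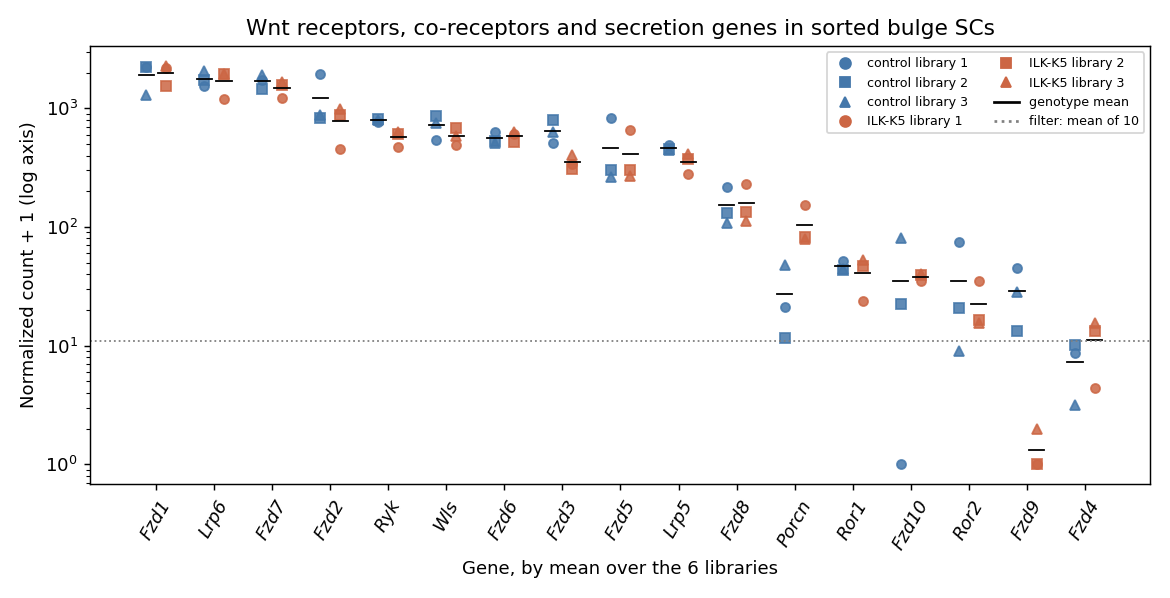
Normalized count + 1 (vertical log axis) of the 17 receptor, co-receptor and secretion genes in each library, with control in blue, ILK-K5 in orange, the replicate as the marker shape and genotype means as black bars. Fzd9 falls to between 0 and 0.97 normalized counts in ILK-K5 libraries, Porcn lies higher in all 3 of them, and Fzd5 splits by replicate 1 (circles) in both genotypes.

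Fzd5 differed between libraries in another way. The sample descriptions end in 111 for replicate 1 of both genotypes and in 252 for replicates 2 and 3, without saying what the numbers mean. Fzd5 had 832 and 660 normalized counts in the control and ILK-K5 libraries numbered 111 and between 264 and 304 in the 4 libraries numbered 252. A fit of differences by number was chosen after these values were seen. The difference by number was 1.38 on the log2 scale (standard error 0.24, adjusted p = 0.0141 from limma with terms for genotype and number), where 8.83% of all tested genes were called. Between the genotypes the difference was -0.11 (95% interval -1.24 to 1.01), and 17.8% of the exon bases of Fzd5 are shared with Gm38058 on the other strand. None of the other 24 tested genes of the set was called by number. Those with an unadjusted p under 0.05 ran in both directions, with 0.89 for Fzd8 (adjusted p = 0.0710, limma) and 1.80 for Ror2 (adjusted p = 0.0791), and with -0.85 for Wnt4 (adjusted p = 0.130), -2.80 for Fzd10 (adjusted p = 0.113) and -2.94 for Wnt3 (adjusted p = 0.135). The values of Fzd10 and Wnt3 rest on control 1, which had 0 reads of either. ILK-K5 1, also numbered 111, had 34.2 normalized counts of Fzd10 beside 38.6 and 39.0 in ILK-K5 2 and 3. For Wnt3 these were 28.5 beside 20.8 and 25.3. The share of mitochondrial reads was 23.6% and 24.2% in the libraries numbered 111 and 11.5% to 27.6% in the others, and its part in these values was not tested.

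The co-receptor Lrp6 had 1539, 1727 and 2050 normalized counts in control and 1190, 1957 and 1933 in the ILK-K5 libraries, which overlapped. Its log2 fold change of -0.092 had a 95% interval from -0.74 to 0.55. Lrp5 had 489, 452 and 444 in control and 277, 372 and 413 in ILK-K5 libraries, without overlap, and a log2 fold change of -0.40 (95% interval -1.005 to 0.20, adjusted p = 0.690, limma). Ryk, a Wnt receptor with an inactive kinase domain, was the steadiest of the tested genes over the control libraries. Its normalized counts were 772, 807 and 797 in control and 472.5, 607 and 636 in the ILK-K5 libraries. The ILK-K5 libraries all lay lower, with a log2 fold change of -0.48 (95% interval -1.04 to 0.074, adjusted p = 0.522, limma). Ror1 and Ror2, the receptor kinases that bind Wnt5a, were low, with 0.81 ± 0.08 and 0.82 ± 0.86 FPKM (SD, n = 3 each) in control against 0.71 ± 0.27 and 0.52 ± 0.27 in the ILK-K5 cells. Neither was called, and the 95% interval was -1.34 to 0.80 for Ror1 and -2.05 to 1.62 for Ror2.

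Porcn, the acyltransferase that attaches the lipid to Wnt proteins, showed the largest difference among the higher genes. Its gene (ENSMUSG00000031169) lies on the minus strand of the X chromosome from 8193848 to 8206525. It had normalized counts of 20.3, 10.6 and 47.2 in controls 1 to 3 and 153, 81.0 and 77.9 in the ILK-K5 libraries, and the genotypes did not overlap. The log2 fold change was 2.13 (95% interval 0.79 to 3.46, 4.37-fold) with an adjusted p of 0.105 (limma). It was 2.85 in replicate 1 and 1.76 in replicates 2 and 3. The adjusted p was 0.0328 with control 3, the highest control, left out and up to 0.319 with another library left out, so that 1 of these 6 fits called it. DESeq2 gave an adjusted p of 0.0276, edgeR 0.175 and limma on replicates 2 and 3 alone 0.369. Wls, which carries the modified Wnts to the surface, lay in the other direction without passing the test, with 535, 867 and 758 normalized counts in control and 486, 683 and 581.5 in ILK-K5 libraries (log2 fold change -0.29, 95% interval -0.93 to 0.35). Beside Porcn the macrophage and dendritic cell markers were higher in the same libraries, and their part in its count was not tested.

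**Figure D5:**
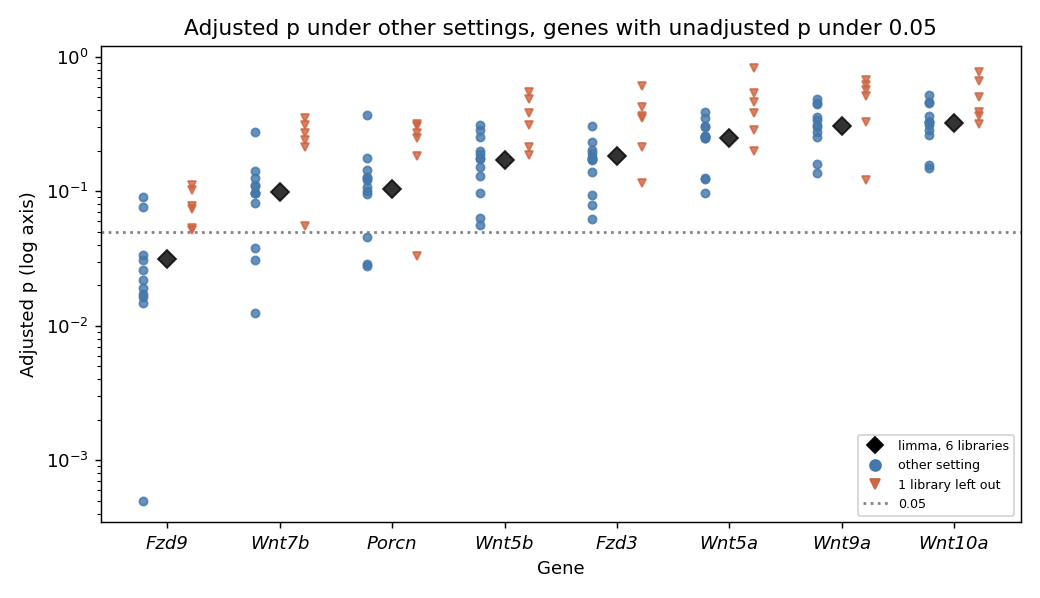
Adjusted p-values (vertical log axis) of the 8 genes with an unadjusted p under 0.05, with limma on all 6 libraries (black diamonds), under the other settings (blue circles) and with each library left out (orange triangles). Fzd9 is below 0.05 in 9 of the 11 other settings and in none of the fits that leave out a library, and Wnt7b and Porcn each fall below 0.05 in 3 of 12 other settings.

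The other genes of the pathway gave little beside this. Of 59 genes in 4 lists, 46 were tested, 1 was called lower and none higher (limma), where 0.599% and 2.93% of all genes were called, and 6 or 13.04% had an unadjusted p under 0.05 against 12.3%. DESeq2 called 1 higher and 1 lower, where it called 4.77% of all genes higher and 1.66% lower. Their median log2 fold change was 0.017. The gene called was Sostdc1, a secreted antagonist of Wnt and Bmp signals that binds Lrp5 and Lrp6, with 777 against 5818 normalized counts in the means of ILK-K5 and control libraries (adjusted p = 0.00124, limma). None of the other tested inhibitors was called. Sfrp1, a soluble decoy of Frizzled, was the most abundant with 26634 and 27426 normalized counts in control and ILK-K5 libraries (log2 fold change 0.21, standard error 0.49), and Dkk3 followed with 8720 and 6067. Lgr4, Lgr5 and Lgr6 bind R-spondins, which raise the number of Frizzled receptors on the surface. None of the 6 tested genes of that list was called, and Lgr6 had the lowest p, with 2803 and 1626 normalized counts and libraries that did not overlap (log2 fold change -0.77, standard error 0.26, adjusted p = 0.211, limma). Among 22 intracellular components 0 were called and 1 had an unadjusted p under 0.05, Nkd1, an inhibitor of Dishevelled that Wnt signalling itself induces (log2 fold change -1.92, adjusted p = 0.178, limma). For Ctnnb1, which encodes β-catenin, the log2 fold change was 0.19 (standard error 0.50). Of 10 tested planar polarity genes 0 were called and 3 had an unadjusted p under 0.05, all higher. These were Celsr1 with 0.91 on the log2 scale (standard error 0.26, adjusted p = 0.114, limma), Celsr2 with 1.09 (adjusted p = 0.262) and Vangl1 with 1.07 (adjusted p = 0.280), and DESeq2 called Celsr1 (adjusted p = 0.0419).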

How the data were processed

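RNA of sorted bulge SCs was amplified as cDNA (Ovation RNA-Seq System V2), made into Nextera XT libraries and sequenced as read pairs. The authors removed adapters and ribosomal reads and aligned to GRCm38. The submitters' processing notes name TopHat2 2.0.14, Bowtie2 2.2.4 and DESeq2 1.6.3. The counting program is not given in the sources used here. The kits do not mark strand. The normalized signal deposited by the authors is a gene's reads over the size factor of its library. All values (100%) were whole multiples of the value of 1 read (tolerance 0.01), so that reads were recovered. The FPKM deposited by the authors equal these values times 1 constant per gene. The authors' own comparison, with its fold changes and p-values, was not used.

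Of 43274 genes, 42107 (97.3%) had a symbol in GENCODE M21 (GRCm38), which also gave coordinates. Genotypes were compared with limma 3.58.1 in R 4.3.3 (eBayes with a trend, two-sided) on log2(normalized count + 1) for the 16368 genes whose mean was 10 or more. With 3 against 3 libraries an exact permutation test of 1 gene cannot go below 0.1. edgeR 4.0.16, DESeq2 1.42.0, pseudocounts of 0.1 and 5, no filter or a mean of at least 50, TMM, quantile normalization, FPKM, a replicate block, a term for the number in the descriptions, replicates 2 and 3 alone and the loss of each library were alternatives. The code was tested on simulated data. The genes and lists were chosen with earlier results of these data known. Every gene of the set could be named, together with the called genes and up to 4 abundant genes of each pathway list, and with markers. Nkd1, Celsr2 and Vangl1, the fit of differences by number and the promoter motif were chosen after values were seen. Intervals and floors cover counting error or the spread between libraries only. Tables used Python 3.11.15 with pandas 2.3.3 and figures matplotlib 3.10.9.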

Additional observations from a re-analysis of the deposited data

How the results depend on the processing

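Counts of called genes depended on the fit. In the set, 1 gene was called higher and 2 lower with DESeq2, with a replicate block and with a term for the number in the descriptions, where all genes gave 780, 848 and 846 higher and 271, 269 and 286 lower, and the other pathway genes 1 higher. The gene called lower was lost (0) with a pseudocount of 0.1, with a mean of at least 50, which removes Fzd9, and with replicates 2 and 3 alone. When single libraries were left out, the set had 0 to 1 gene higher and 0 to 0 lower, all genes 222 to 559 higher and 32 to 98 lower, and the other pathway genes 0 to 1 higher. Porcn and Celsr2 were the genes called without control library 3. The counts for all genes fell by more than 1.5 times without control library 2 or any ILK-K5 library, to 310 higher and 35 lower without the former and to 268, 222 and 245 higher and 40, 32 and 41 lower without ILK-K5 libraries 1, 2 and 3. Libraries of the same replicate number deviated from their genotype means with correlations of 0.53, 0.020 and 0.31 for replicates 1, 2 and 3. Control 3 against ILK-K5 2 had 0.50, so that the replicate numbers were not taken as a pairing. The signs did follow the number that ends the descriptions. Between libraries numbered 111 and 252 all correlations were negative, from -0.55 to -0.060, and within 252 they ran from 0.020 to 0.50. The replicate block gave adjusted p-values of 0.0380 for Wnt7b, 0.0287 for Porcn, 0.0190 for Fzd9 and 0.0491 for Celsr1. The ligand median was 0.31 without a filter, which also shifted the median of all genes to -0.10, and 0.096 with replicates 2 and 3 alone. It lay between 0.55 and 0.99 when a library was left out. The median of the Frizzled receptors then lay between -0.30 and 0.049 and that of the whole set between -0.16 and 0.049. The whole set had -0.19 with both edgeR and DESeq2. With replicates 2 and 3 alone the whole set had 0.047, and so had the co-receptor, Ror, Ryk and secretion genes. The causes were not tested. Of 442 values of single genes of the set under the alternatives, 427 kept their side of the threshold, 8 lost a call (all Fzd9) and 7 gained one (Wnt7b and Porcn), while 26 values in 10 uncalled genes changed sign, Wnt3 and Fzd8 most often. Depth limits the 11 genes below the filter, with at most 25 reads in a library.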

Other observations

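The ratio of Wnt5b to Wnt7b within a library, a comparison chosen after the values were seen and given without a test, was 0.489, 0.544 and 0.780 on the FPKM scale in controls 1 to 3 and 3.61, 3.20 and 3.12 in the ILK-K5 libraries. Wnt7b thus exceeded Wnt5b in every control library and Wnt5b exceeded Wnt7b in every ILK-K5 library. A size factor cancels in this ratio, so that it does not depend on the scaling between libraries.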
